A study of Rattus rattus with 8 samples.

Results

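Globins and red cell genes were followed in rat hair follicles after simulated blast, by 5 RefSeq mRNA accessions among the 26997 different names that the probes of the array carry. They are Hbb (NM_033234), Hbb-b1 (NM_198776), Hba-a2 (NM_013096), Alas2 (NM_013197) and Slc4a1 (NM_012651), and 8 of the 30367 different probes target them. The genes were chosen from measured values: Hbb had been seen to vary widely between these rats, so its level and spread are described here and not tested. Each of the 8 probes was well above background on all 8 arrays, and 0 of their spots were saturated or marked as outliers.

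The series holds 8 male Sprague-Dawley rats, 1 array per rat. The 3 sham rats were at 0 kPa. The 5 blast rats received a single pulse to the head in a shock tube under anaesthesia, and of these 2 were exposed to 145 kPa (21.03 psi), 1 to 175 kPa (25.4 psi) and 2 to 200 kPa (29.0 psi). Rats are named here by pressure and by the number in their labels: sham rats 1, 2 and 3, 145 kPa rats 2 and 3, 175 kPa rat 1, and 200 kPa rats 1 and 3. Each array measured RNA from several pulled whisker follicles of a rat, pooled, and the rats were adults observed for a shorter or a longer period that the labels do not give for each rat. A pulled follicle carries its own epithelium and whatever of the surrounding tissue and blood comes with it. The labelled tissue was not checked against follicle markers, because 0 of the accessions on the array matched the gene table at hand and the marker lists could not be matched.

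Haemoglobin carries oxygen in red cells and is built from alpha-like and beta-like globin chains, each holding a haem group. Maturing red cells make globin mRNA in very large amounts in the bone marrow, and reticulocytes, the young red cells that have just entered the blood, still carry it. Haem is made in a pathway whose first step in the red cell lineage is catalysed by the enzyme encoded by Alas2, and Slc4a1 encodes band 3, the anion exchanger of the red cell membrane.

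Hbb encodes a beta globin chain. In its brightest probe the log2 intensity was 10.21, 13.96 and 11.64 in sham rats 1, 2 and 3. It was 17.42 and 13.34 in 145 kPa rats 2 and 3, 15.37 in 175 kPa rat 1, and 13.31 and 14.43 in 200 kPa rats 1 and 3. The rats ran from sham rat 1 to 145 kPa rat 2 over a range of 7.22 on the log2 scale, or 149-fold, and the arms overlapped, because sham rat 2 lay above 145 kPa rat 3 and 200 kPa rat 1. The mean was 11.94 ± 1.90 (SD, n = 3) in sham and 14.77 ± 1.71 (SD, n = 5) in blast, a difference of 2.84 that is given as a description. Fewer cells of a type and less RNA per cell cannot be told apart in such pooled tissue.

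The other Hbb probe ranked the rats nearly alike. It read 4.88, 8.88 and 6.04 in sham rats 1, 2 and 3, then 12.48 and 9.74 in 145 kPa rats 2 and 3, 10.32 in 175 kPa rat 1, and 8.18 and 9.58 in 200 kPa rats 1 and 3. Here 4 of 5 blast rats exceeded the highest sham rat, against 3 in the brightest probe. The rat that moved was 145 kPa rat 3: relative to each probe's own mean over 8 rats it stood at −0.37 in the brightest probe and at 0.98 in the other.

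The Hbb accession is the one under which the study's own primer table lists Hbb. The primers are shown because they are the only sequences at hand that tie this symbol to the accession, 20 and 21 bases long:
Hbb forward: ggggaaaggtgaaccctgat
Hbb reverse: acaggtccccaaagctatcaa

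Hbb-b1 encodes another beta globin chain, and its transcript may be so close to that of Hbb that a probe for one also binds the other. Its brightest probe read 9.35, 13.44 and 10.92 in sham rats 1, 2 and 3. It read 16.77 and 13.24 in 145 kPa rats 2 and 3, 14.80 in 175 kPa rat 1, and 12.75 and 13.97 in 200 kPa rats 1 and 3. The order of the 8 rats was that of Hbb without exception, so sham rat 2 again lay among the blast rats. The difference, blast minus sham, was 3.07 (95% interval 0.37 to 5.77), or 8.39-fold, and 3 of 5 blast rats were above all sham rats. In limma the adjusted p was 0.9999 and the unadjusted p was 0.031, while the two-sided exact permutation test gave p = 0.0714. The other Hbb-b1 probe differed by 3.01.

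Hba-a2 encodes an alpha globin chain, whose gene lies apart from the beta globin genes. Its brightest probe read 12.65, 15.12 and 13.71 in sham rats 1, 2 and 3. It read 17.71 and 16.37 in 145 kPa rats 2 and 3, 16.53 in 175 kPa rat 1, and 14.28 and 15.32 in 200 kPa rats 1 and 3. Only 200 kPa rat 1 among the blast rats lay below sham rat 2, and 4 of 5 were above all sham rats. The difference was 2.21 (95% interval 0.24 to 4.19), or 4.64-fold, with an adjusted p in limma of 0.9999, an unadjusted p of 0.0324 and an exact permutation p of 0.0536. The other Hba-a2 probe, printed as 1 spot on each array, spanned 7.88 over the 8 rats where the brightest spanned 5.06, and differed by 3.32 between the arms.

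**Figure D1:**
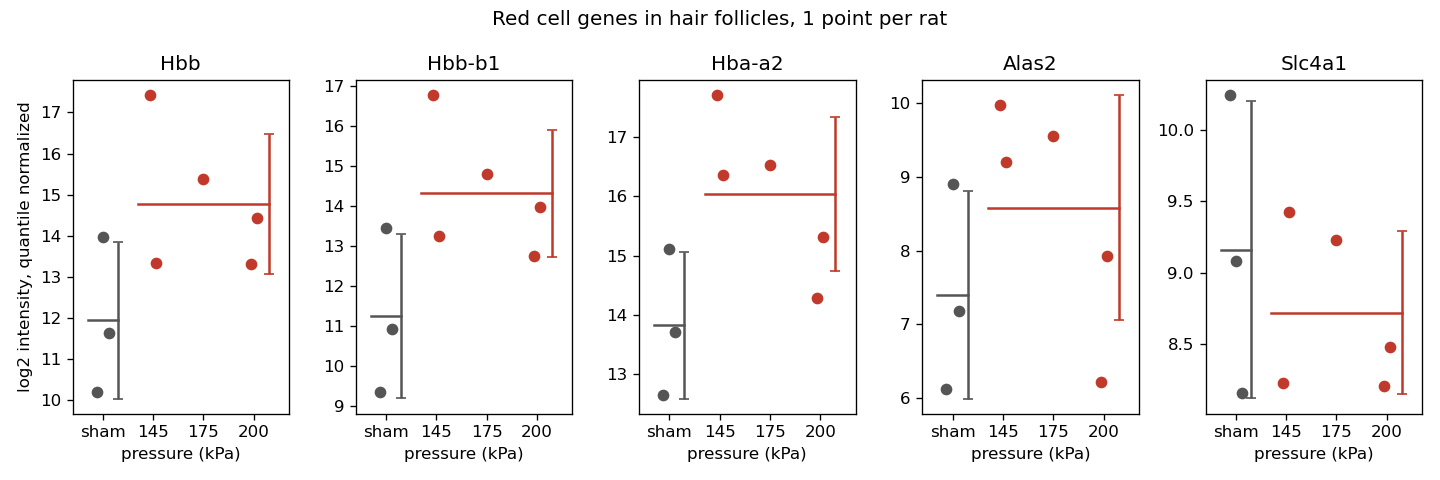
Log2 intensity after quantile normalization (vertical axis) in the brightest probe of each gene, by pressure in kPa (horizontal axis), with 1 point per rat; lines are the means of 3 sham and 5 blast rats and error bars are 1 SD. Sham and blast rats overlap in every gene, and Slc4a1 has its highest point, 10.24, in a sham rat.

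Across the whole array, 0 of the 30366 probes tested passed an adjusted p under 0.05 in limma (0%), and 850 passed an unadjusted p under 0.05 (2.8%), of which 358 were higher in blast (1.18% of all tested). Without the 175 kPa rat 1649 passed the unadjusted threshold and 952 of them were higher in blast, so the share of these calls that were higher went from 42.1% to 57.7%. With a one-way analysis of variance, the test the methods name, 0 probes passed the adjusted and 683 the unadjusted threshold over all 8 rats. Of the 6 probes of the 4 genes other than Hbb, 0 passed the adjusted and 4 the unadjusted threshold, all 4 globin probes and higher in blast. By the analysis of variance, 1 of the 6 passed the unadjusted and 0 the adjusted threshold. The globin probes follow Hbb, by which the genes were chosen, so their count is no separate support.

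The globin differences moved with single rats. Without sham rat 1 the difference was 2.13 in Hbb-b1 and 1.63 in Hba-a2, and without sham rat 2 it was 4.17 and 2.86. When 1 rat at a time was dropped, the brightest probe passed an unadjusted p under 0.05 in limma in 5 of 8 fits for Hbb-b1 and in 3 of 8 for Hba-a2. It was lost in both genes without sham rat 1, sham rat 3 or the 175 kPa rat, and in Hba-a2 also without either 145 kPa rat. All arrays lay on 1 slide of 2 rows. With the row as a block the differences were 3.54 and 2.54, with an unadjusted p in limma of 0.0149 and 0.0175. With the number in the labels as a block they were 3.49 and 2.48. The unadjusted p in limma was then 0.00154 and 0.00647, the lowest for these probes in any setting run. Whether the numbers pair the rats is not known. When the slide side (left or right columns) was the block the differences were 2.88 and 2.02, with an unadjusted p in limma of 0.0573 and 0.0598. The other probes of the same genes had 0.0632 and 0.0527, so 0 of the 4 globin probes outside Hbb passed 0.05. Over the array 1111 of the 30366 probes tested passed it in that fit, where 850 did without a block. Within the first row (sham rats 1 and 2, 145 kPa rat 2 and 175 kPa rat 1) the differences were 4.39 and 3.23. Within the other row, where sham rat 3 is the lone sham rat and is assumed to vary like the rest, they were 2.40 and 1.61.

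Alas2 read 6.12, 8.91 and 7.18 in sham rats 1, 2 and 3. It read 9.98 and 9.20 in 145 kPa rats 2 and 3, 9.56 in 175 kPa rat 1, and 6.21 and 7.93 in 200 kPa rats 1 and 3. Both 145 kPa rats and the 175 kPa rat were above all sham rats, and both 200 kPa rats lay inside the sham range. The difference was 1.17 (95% interval −1.12 to 3.47), with an adjusted p in limma of 0.9999 and an exact permutation p of 0.304, and did not exceed the spread between rats. It was 2.25 within the first row of the slide, 0.60 within the other, 0.53 without sham rat 1 and 1.93 without sham rat 2.

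Slc4a1 read 10.24, 9.08 and 8.16 in sham rats 1, 2 and 3. It read 8.23 and 9.42 in 145 kPa rats 2 and 3, 9.23 in 175 kPa rat 1, and 8.21 and 8.48 in 200 kPa rats 1 and 3. All blast rats fell inside the sham range, and the rat with the lowest globins, sham rat 1, had the highest Slc4a1. The difference was −0.44 (95% interval −1.63 to 0.74), with an adjusted p in limma of 0.9999 and an exact permutation p of 0.536. Its sign turned to 0.10 without sham rat 1 and to 0.55 within the row of the slide that holds sham rat 3. The array of sham rat 1 also had the highest median processed signal before normalization, 281 where the others ran from 90.9 to 180, and the part of this in the result was not tested.

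By pressure, the means of the globins were lower at 200 than at 145 kPa, with 2, 1 and 2 rats at 145, 175 and 200 kPa and no test. In the brightest probes they were 15.38, 15.37 and 13.87 for Hbb at 145, 175 and 200 kPa, and 17.04, 16.53 and 14.80 for Hba-a2. The pair at 145 kPa was 4.09 apart in the brightest Hbb probe and overlapped the pair at 200 kPa, while in the brightest Hba-a2 probe it was 1.35 apart and both rats lay above both 200 kPa rats, as they did in the other Hbb probe. In the other Hba-a2 probe and in both Hbb-b1 probes the pairs overlapped. Both 200 kPa rats lay in the same row of the slide as 145 kPa rat 3, and 145 kPa rat 2 in the other row. Within that shared row, 145 kPa rat 3 was below the 200 kPa mean in the brightest probes of Hbb (13.34 against 13.87) and Hbb-b1 (13.24 against 13.36), and above it in that of Hba-a2 (16.37 against 14.80). Alas2 had 9.59, 9.56 and 7.07 at the same pressures, against 7.40 in sham, and its pairs of rats at 145 and 200 kPa did not overlap.

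The globins were among the probes that varied most between rats, which is how Hbb came to be chosen. The SD over 8 rats was 2.20 in the brightest Hbb probe, 2.27 in that of Hbb-b1 and 1.65 in that of Hba-a2, beside a median of 0.39 over the 17472 probes that were well above background and had a value on every array. An SD at least as large was found in 0.0859%, 0.0687% and 0.755% of these probes. With the arm means removed the SD was 1.77, 1.76 and 1.28, so rats of one arm differed widely from each other too. A within-arm SD at least as large was found in 0.607%, 0.664% and 2.86% of these probes. Alas2 had an SD of 1.51 (1.28% of probes at least as large) and 1.49 within arms. Slc4a1 had 0.74, a size that 11.8% of the probes reached. Spots of one probe on one array differed by a median SD of 0.04, and at most by 0.33.

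**Figure D2:**
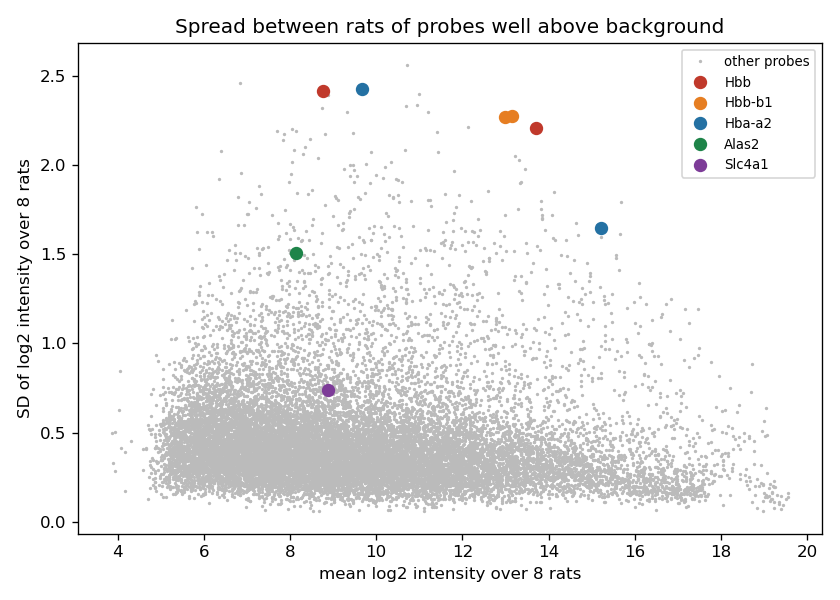
SD of log2 intensity over 8 rats (vertical axis) against mean log2 intensity (horizontal axis) for probes well above background on every array, grey, with the red cell probes in colour. The globin probes lie between 1.65 and 2.43, Alas2 at 1.51 and Slc4a1 at 0.74.

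The globins ordered the rats in nearly the same way. Over the 8 rats, the brightest Hbb probe had a Pearson r of 0.93 and a Spearman rho of 0.93 with the brightest probe of Hba-a2, and 0.98 and 0.98 with the other. After the arm means were removed, r was 0.86 and 0.97. Without sham rat 1 and 145 kPa rat 2, the rats farthest from the Hbb median, r was 0.75 and 0.94 over 6 rats. An r with Hbb at least as high as that of the brightest Hba-a2 probe was found in 4 of 17464 other probes (0.0229%). All values of a rat come from 1 array of 1 pool of follicles, and these correlations are descriptions with no p.

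How closely Alas2 followed the globins varied with the probe. Its r with Hbb was 0.80 and its rho 0.88, and r was 0.78 with arm means removed and 0.58 without the same pair of rats. With the brightest Hba-a2 probe it had an r of 0.92 and a rho of 0.95, and r was 0.97 with arm means removed and 0.86 without that pair. With the other probes its r was 0.85 for Hbb and 0.86 for Hba-a2, its rho 0.95 and 0.90, and its r with arm means removed 0.90 and 0.89, so these did not separate alpha from beta globin. In 200 kPa rat 1, for example, Alas2 stood at −1.93 from its mean over 8 rats and Hbb at −0.40 from its own.

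Slc4a1 did not follow the globins over all 8 rats, with an r of −0.46 and a rho of −0.07 to Hbb. In the 6 rats left without sham rat 1 and 145 kPa rat 2, r was 0.54 to Hbb, 0.90 to the brightest Hba-a2 probe and 0.93 to Alas2. The negative r to Hbb rested on sham rat 1: it was 0.03 without that rat alone and −0.32 without 145 kPa rat 2 alone. Sham rat 1 stood at 1.36 from the Slc4a1 mean and at −3.51 from the mean of the brightest Hbb probe.

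**Figure D3:**
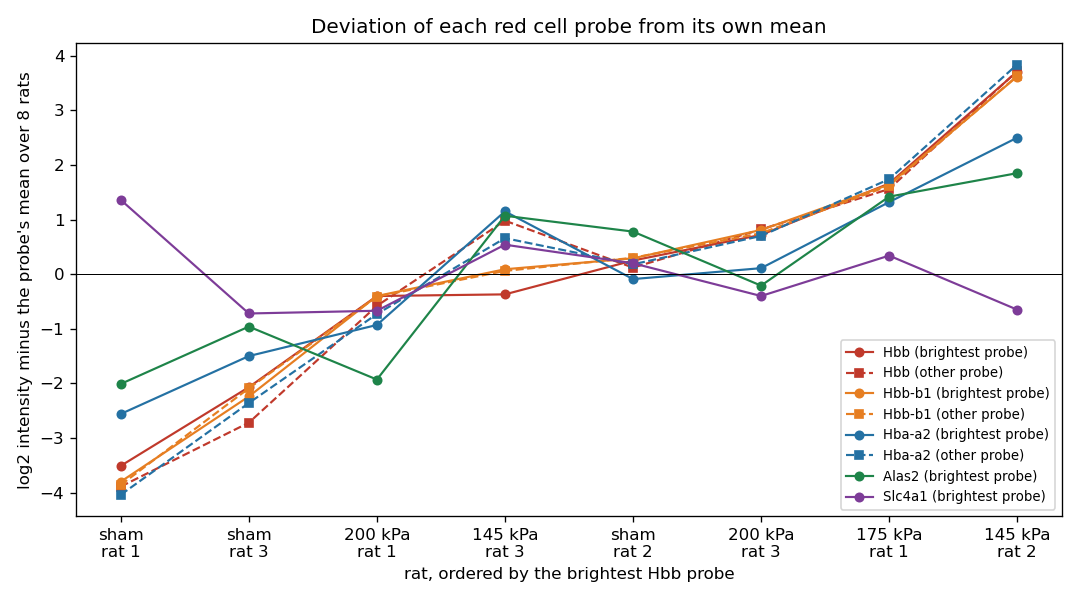
Log2 intensity of each red cell probe minus its own mean over 8 rats (vertical axis), with rats ordered by the brightest Hbb probe (horizontal axis); solid lines are the brightest probe of a gene and dashed lines the others. Every globin line is lowest in sham rat 1 and highest in 145 kPa rat 2, both Hba-a2 lines and the other Hbb line fall from 145 kPa rat 3 to sham rat 2, and Slc4a1 is at 1.36 in sham rat 1.

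Whether alpha and beta globin differed in a rat depended on the probes compared. In 145 kPa rat 3 the deviation from the 8-rat mean exceeded that of the brightest Hbb probe by 1.53 and 1.04 in the Hba-a2 probes, by 1.35 in the other Hbb probe, and by 0.46 and 0.43 in the Hbb-b1 probes. The other Hba-a2 probe and the other Hbb probe, set against each other, had deviations that differed by at most 0.36 in any of the 8 rats. In 145 kPa rat 2, which had the highest globins, the same difference from Hbb was −1.21 in the brightest Hba-a2 probe and 0.13 in the other.

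Beyond the 5 accessions, only probes with a RefSeq or Ensembl transcript name were ranked by their likeness to Hbb. Those most like Hbb over the 8 rats were NM_001111269 (r = 0.999) and NM_001024805 (r = 0.992), which no table at hand names. NM_001111269 ran from 7.95 in sham rat 1 to 15.14 in 145 kPa rat 2 and ordered the rats as Hbb did. Among the ranked probes the lowest r belonged to NM_001107133 (−0.975) and ENSRNOT00000011803 (−0.943). These spanned only 0.53 and 0.99 on the log2 scale where NM_001111269 spanned 7.19.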

How the data were processed

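The authors extracted spot intensity with Agilent Feature Extraction, version 10.7.1.1 per the file headers (the paper's methods give another version), which subtracts background; these deposited intensity values are on a linear scale. A table of log2 values was deposited too. Set against the scanner intensities on a log2 scale, its 8 columns had a lowest correlation of 0.999, and each column held an identical set of numbers with a median of 6.70; whether a constant was added is not known.

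Here control and outlier spots were dropped and the log2 intensities of replicate spots averaged. Quantile normalization between arrays followed, then a lower limit of 3 on the intensity, and log2. Blast and sham were compared with limma 3.58.1 in R 4.3.3, with p adjusted by Benjamini-Hochberg over 30366 probes, and single probes by exact permutation, two-sided, of the 56 possible splits of the rats, where p can go no lower than 0.0179. Steps were tested on simulated data. Probes were found by accession, and the probe with the highest mean stood for a gene. Of the symbols given for the genes, Hbb is paired with its accession in the study's primer table and the other 4 came with the list of genes and were not checked. The members and lists were chosen with earlier results of these data known.

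The accessions named as most and least like Hbb were the 2 with the highest and 2 with the lowest r among a part of the other probes. That part was the probes well above background on all arrays that carry a RefSeq or Ensembl transcript name. Lists of other globin, haem, red cell, platelet, leukocyte, endothelial and follicle genes, 159 symbols, were not analysed here, since 0 probes matched the gene table (Rattus rattus, Rrattus_CSIRO_v1). The alternatives were scaling to the 75th percentile, the deposited log2 values, normexp with offset 50, no lower limit, a limit of 8, a filter asking for signal well above background on 3 or more arrays, outlier spots kept, the methods' analysis of variance, limma with trend and robust eBayes, the title number, slide row or slide side as a block, each rat left out, and the other probes of a gene. The number of arrays, 3 and 5, limits the precision.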

Additional observations from a re-analysis of the deposited data

How the results depend on the processing

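Under the alternatives run, the differences stayed above 0 in the brightest probes of Hbb (1.97 to 4.31), Hbb-b1 (2.13 to 4.39), Hba-a2 (1.61 to 3.23) and Alas2 (0.53 to 2.25) and in the other probes of Hbb (2.60 to 4.60), Hbb-b1 (2.02 to 4.41) and Hba-a2 (2.33 to 4.72), and no adjusted p of a tested red cell probe fell below 0.913. The unadjusted p of the brightest probe was under 0.05 in 16 of 22 settings for Hbb-b1 and in 13 of 22 for Hba-a2. The 16 count the fit within the row where sham rat 3 is the lone sham rat, which has no sham spread of its own. Both counts hold the fit with no lower limit, which gave the main values again. Slc4a1 turned to 0.55 within the row of the slide with sham rat 3, and ran from −0.94 to 0.10 with each rat left out; its r with Hbb then ran from −0.72 without sham rat 3 to 0.03 without sham rat 1, and its SD from 0.54 to 0.80. The count at an unadjusted p under 0.05 was 442 when signal well above background was required on 3 or more arrays, which left 20717 probes to test, and ran from 657 to 1649 with each rat left out. The count at an adjusted p under 0.05 then ran from 0 to 3, with 2 probes without sham rat 1 and 3 without sham rat 3. The cause was not tested.

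The number in the titles was also entered as a replicate block. The differences were then 3.26 for Hbb, 3.49 for Hbb-b1, 2.48 for Hba-a2, 1.44 for Alas2 and −0.49 for Slc4a1. Outside Hbb, which was not tested, every globin probe passed the unadjusted threshold and no red cell probe the adjusted. Over the array the counts were again 0 and 850, but 312 in place of 358 of the latter were higher in blast. The probes were thus not all the same. Likeness of same-numbered rats was looked at over the probes well above background on all arrays, with arm means removed. It showed no clear pairing, but 5 pairs cannot settle whether the numbers pair the rats. Deviations of the 5 same-numbered pairs of a sham and a blast rat correlated between −0.57 and 0.50. The 10 such pairs with different numbers ran from −0.66 to 0.6, and 3 of 8 rats correlated best with their own number.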
